A study of Mus musculus with 15 samples.

Results

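The genes described here are T, B and NK cell lineage genes, measured in cultures of a macrophage line. They were chosen by symbol from a fixed set of 43 lymphocyte genes, of which 41 were among the 561 genes of the nanoString nCounter Mouse Immunology panel. Lag3 and Ncr1 were not analysed here. RAW 264.7 macrophages, cells of a mouse line, were exposed for 24 hours to LPS together with extracellular vesicles (EVs) from the plasma of female C57BL/6J mice aged 6 to 8 weeks. The donor mice were sham treated, or had been irradiated over the whole body (WBIR) from a cesium source, at 2 or 9 Gy, 3 or 7 days earlier. This gave 5 groups of 3 samples: sham EVs, 2 Gy day 3 EVs, 2 Gy day 7 EVs, 9 Gy day 3 EVs and 9 Gy day 7 EVs, named below by the dose and day of the donors. All groups received LPS and EVs, so no group here shows the genes in resting cells or in cells with LPS alone. Nothing in the labels says that the 3 samples of a group were separate cultures or came from separate donor mice, and p-values may therefore measure only technical spread.

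Lymphocytes are recognised by a small set of genes. T cells carry the T cell receptor with its CD3 chains and the CD4 or CD8 co-receptors, B cells carry CD20, CD22 and the CD79 chains, and NK and cytotoxic T cells store perforin and granzymes. Macrophages instead carry Fc receptors, Toll-like receptors and phagocytic enzymes, and a macrophage line grown alone holds no lymphocytes. The nCounter assay counts colour-coded probes hybridized to RNA without amplification, so every gene is given a low count from probes that bind nonspecifically, and a gene has to be read against that floor.

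Depth differed between the groups. Total counts ranged from 453178 to 837995 in the 12 samples of the other groups and were 43176, 60411 and 87899 in the 9 Gy day 3 EV samples, where the mean of the sham EV samples was 10.4 times higher. Of these 3 shallow samples, replicates 1 and 2 carry a day label of 7 although their titles place them at day 3. The geometric mean of the 14 housekeeping genes of the panel moved differently from the total: the 9 Gy day 7 EV mean was 1.64 times the sham EV mean, while its total count was 0.768 times the sham EV mean. The macrophage label held for most of its markers: 11 of 13 macrophage genes were clearly expressed by the rule given below, and their median count lay between 808 and 1505 in the 12 deeper samples. The highest, Cybb of the phagocyte oxidase, gave 9299 to 17992 counts there, and the lowest, the Fc receptor gene Fcgr3, gave 24 to 53. The exceptions were Csf1r, the receptor for macrophage colony-stimulating factor, and Trem2, a lipid receptor. Csf1r gave 20 to 50 counts with sham and 2 Gy EVs and 177 to 210 counts at 9 Gy day 7.

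The floor was taken from 26 genes of the panel known mainly from liver, epithelium, endothelium, thymus stroma, platelets, mast cells or blood progenitors, since counts of the negative control probes were not used here. In the 12 deeper samples the median of these reference genes was 6.5 to 11.5 counts, and the median of the 41 lymphocyte genes was 7 to 12 counts. The lymphocyte genes as a set therefore lay at the floor. In the 9 Gy day 3 EV samples both medians were 1 or 2, and 1 was the lowest count in the whole data set. There, 32, 25 and 29 of the 41 genes had a count of 1 in replicates 1, 2 and 3. All 41 lymphocyte genes together gave 478 to 767 counts in each deeper sample, which was 0.0841% to 0.124% of all counts. Their summed count followed depth down at 9 Gy day 3: it averaged 613 in the sham group and 73.0 in that group, with the sham EV mean 8.39 times higher. The summed reference genes were 8.30 times higher in the sham group than in that group. At 9 Gy day 7 it did not follow depth. There the total count was 0.768 and the summed reference genes 0.735 times the sham EV mean, but the summed lymphocyte genes 0.980 times.

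**Figure D1:**
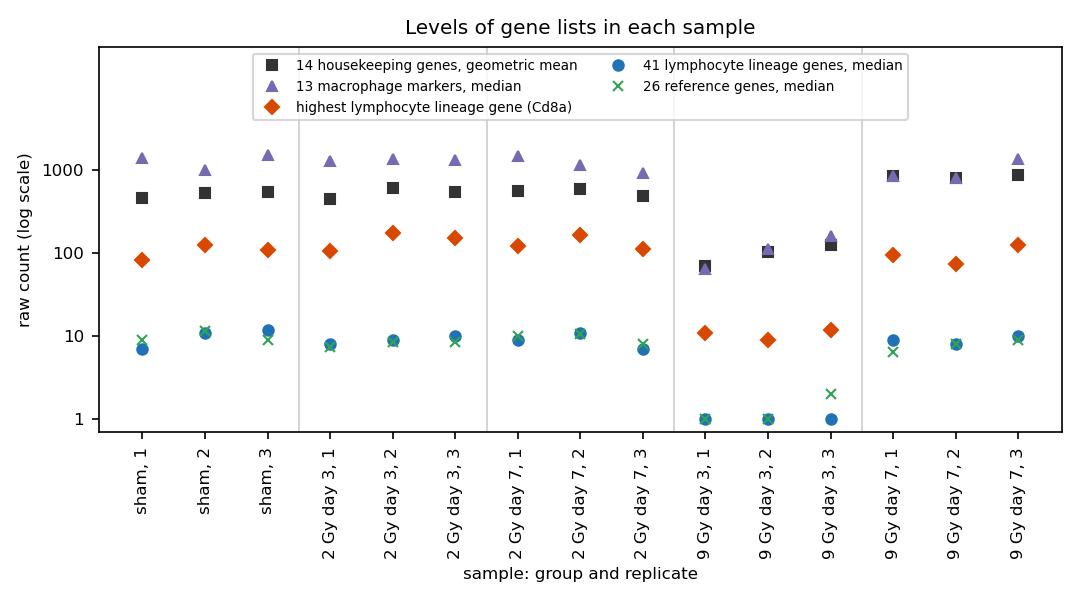
Raw counts in each of the 15 samples (log axis), by EV group. Shown are the medians of the macrophage markers, lymphocyte genes and reference genes, the geometric mean of the housekeeping genes, and the highest lymphocyte gene, Cd8a. The lymphocyte genes sit beside the reference genes at 7 to 12 counts in the 12 deeper samples and at 1 count at 9 Gy day 3, while the macrophage markers sit between 808 and 1505 counts in the deeper samples.

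A gene was called clearly expressed when it had at least 20 counts, and more than the 90th percentile of the reference genes, in each of the 12 deeper samples. That percentile lay between 14.5 and 29.0 counts. Only 3 of the 41 lymphocyte genes (7.32%) met this rule: Cd8a, Lck and Xcl1. With Hamp, Aire, Tal1 and Fcer1a left out of the reference genes, a setting added after the data were seen, the percentile lay between 12 and 19.7 counts and Eomes and Ms4a1 joined them, giving 5, beside 234 of the 561 genes of the panel. Hamp, Aire and Tal1 are the reference genes with a mean of 20 counts or more, and Hamp and Aire changed between the groups, as given below, so their counts were not those of a fixed floor. With the full reference list 222 of the 561 genes of the panel (39.6%) met the rule, and 219 of the 520 genes outside the lymphocyte set (42.1%). At the edge of the rule, Xcl1 was just inside with 30 counts against a percentile of 25.0 in sham EV replicate 1, and Eomes was just outside with 23 counts in that same sample. Eomes passed in the other 11 samples. With 20 counts alone and no percentile, another setting added after the data were seen, the same 5 genes passed, beside 229 of the 520 other genes. With a minimum of 10 counts the same 3 genes were called as with 20, and with a minimum of 50 counts Cd8a alone was. No lymphocyte gene exceeded the highest reference gene in all 12 samples, which was Hamp, the iron hormone hepcidin, at 51 to 127 counts with sham and 2 Gy EVs. At 9 Gy day 7 the highest reference gene was Tal1, a blood stem cell factor, at 33 to 47 counts. Without those 4 reference genes, Cd8a, Lck and Xcl1 exceeded the highest one left in all 12 samples. Panel numbers for the minimums of 10 and 50 counts and for the highest reference gene are not given here. None of the 41 genes reached 20 counts at 9 Gy day 3, where Cd8a, Lck and Ms4a1 were above the percentile of their own sample in all 3 replicates.

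**Figure D2:**
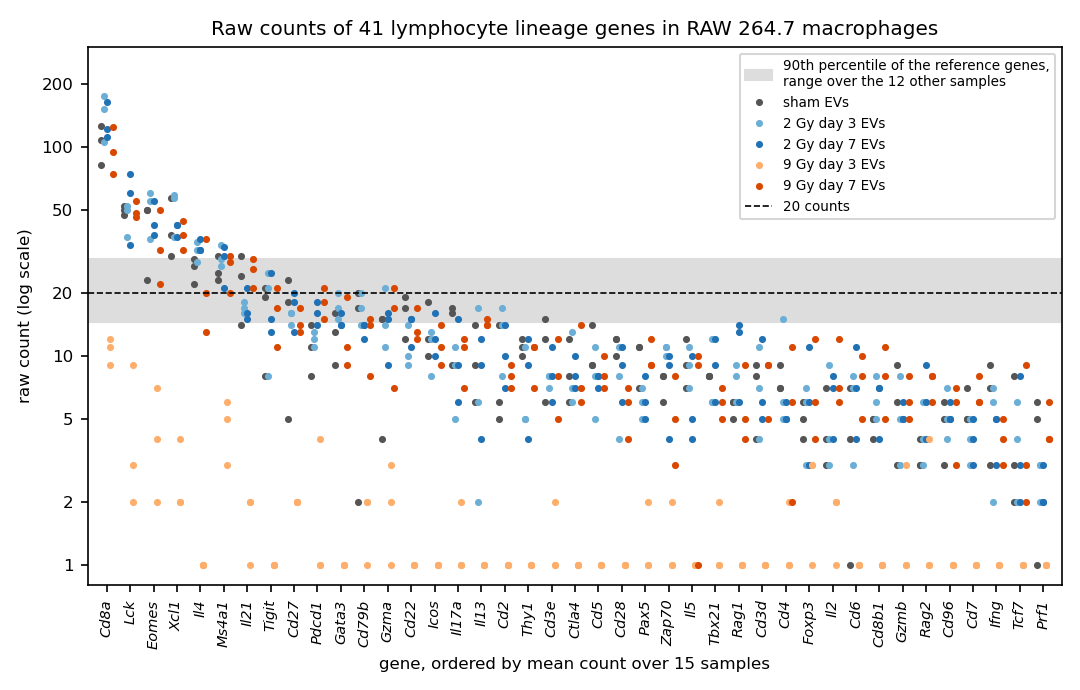
Raw count of each of the 41 lymphocyte genes in all 15 samples (log axis), ordered by mean count, with the floor from the reference genes marked. Cd8a stands highest at 74 to 175 counts in the 12 deeper samples, Lck, Eomes and Xcl1 follow between 22 and 74 counts, and Prf1 is lowest at 1 to 6 counts.

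The T cell receptor genes were at the floor apart from Cd8a. Cd3d and Cd3e, signalling chains of the receptor, Cd4, the helper T cell co-receptor, and Cd8b1, the beta chain of the CD8 co-receptor, gave 2 to 15 counts in the 12 deeper samples with a median of 7. Cd8a, the alpha chain of CD8, gave 82, 125 and 108 counts in the sham group. It gave 105, 175 and 152 counts at 2 Gy day 3 and 122, 163 and 111 counts at 2 Gy day 7. The counts at 9 Gy day 7 were 94, 74 and 124, and those at 9 Gy day 3 were 11, 9 and 12. Raw Cd8a counts overlapped with those of the sham EV samples in every group but 9 Gy day 3 EVs, whose samples were all lower. Cd8a ranked 165 among the 561 genes by its mean count over the 12 deeper samples and took 12.5% to 23.1% of the summed lymphocyte counts in the 15 samples. Its partner Cd8b1, the adjacent coding gene in the mouse RefSeq table, had no more than 11 counts in any sample. Each gene is read by its own probe, whose efficiency is not given in the sources used here, so the counts of the 2 chains cannot be turned into a ratio of transcripts.

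The receptor's kinases split in the same way. Lck, the Src family kinase bound to the CD4 and CD8 tails, gave 47, 50 and 52 counts in the sham group, 37, 52 and 50 at 2 Gy day 3 and 60, 74 and 34 at 2 Gy day 7. With 9 Gy EVs it gave 3, 2 and 9 counts at day 3 and 46, 48 and 55 at day 7. The day 7 values overlapped with those of sham EVs. Zap70, the kinase that docks on the phosphorylated CD3 chains, gave 3 to 11 counts in the 12 deeper samples. The other T and NK cell surface genes, Cd2, Cd5, Cd6, Cd7, Cd96 and Thy1, gave 1 to 17 counts with a median of 7, and none of them was above the 90th percentile of the reference genes in all deeper samples.

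Costimulatory and checkpoint receptors gave low counts too. Cd27, Cd28, Icos, Ctla4, Pdcd1 and Tigit gave 4 to 25 counts with a median of 12, led by Tigit, an inhibitory receptor of T and NK cells, at 8 to 25 counts. Tigit exceeded the 90th percentile of the reference genes in 5 of the 12 deeper samples. In the B cell group, Ms4a1, which encodes CD20, gave 23, 30 and 25 counts in the sham group, 27, 34 and 29 at 2 Gy day 3, 21, 33 and 30 at 2 Gy day 7, 5, 3 and 6 at 9 Gy day 3, and 30, 20 and 28 at 9 Gy day 7. It stayed near the upper edge of the floor, above the percentile in 9 of the 12 samples. Cd22, an inhibitory B cell lectin, and Cd79b, a signalling chain of the B cell receptor, gave 2 to 20 counts.

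Among lineage transcription factors only Eomes, which is active in cytotoxic and memory T cells and NK cells, stood above the percentile in most samples. Its counts were 23, 50 and 50 in the sham group, 36, 60 and 55 at 2 Gy day 3, 42, 55 and 38 at 2 Gy day 7, 2, 4 and 7 at 9 Gy day 3, and 32, 22 and 50 at 9 Gy day 7. The 3 sham EV samples spanned most of the range of the other deeper groups. Foxp3 of regulatory T cells, Gata3 and Tbx21 of helper T cell types, Tcf7 of early T cells and Pax5 of B cells gave 2 to 20 counts. Rag1 and Rag2, the recombinase of receptor gene assembly, gave 3 to 14 counts. The granule genes Gzma, Gzmb and Prf1 gave 1 to 21 counts, and Prf1, which encodes perforin, had the lowest mean of all 41 genes.

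Among the lymphocyte cytokines Xcl1 was clearly expressed. Xcl1, a chemokine of activated CD8 T and NK cells that attracts cross-presenting dendritic cells, gave 30, 57 and 38 counts in the sham group, 37, 59 and 57 at 2 Gy day 3 and 37, 42 and 42 at 2 Gy day 7. With 9 Gy EVs it gave 2, 2 and 4 counts at day 3 and 32, 38 and 44 at day 7. The raw day 7 values lay within the sham EV range. Il4, the cytokine of type 2 helper T cells, gave 29, 27 and 22 counts in the sham group, 32, 35 and 28 at 2 Gy day 3, 36, 32 and 32 at 2 Gy day 7 and 13, 20 and 36 at 9 Gy day 7. In all 3 of the 9 Gy day 3 EV samples Il4 had a count of 1. Its neighbours in the type 2 cytokine cluster, Il13 at 2 to 17 counts and Il5 at 1 to 12 counts in the deeper samples, were at the floor. Il2, the T cell growth factor, gave 3 to 12 counts, and the adjacent gene Il21 gave 14 to 30, the highest of the genes not tested. Ifng, the effector cytokine that activates macrophages, and Il17a were at the floor, with 2 to 9 and 5 to 17 counts.

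The remaining genes ran beside the reference genes. Of the 41 lymphocyte genes, 35 had a mean under 20 counts over the 15 samples and were not tested. Their counts in the 12 deeper samples ran from 1 to 30 with a median of 8, and the 23 reference genes under the same mean also ran from 1 to 30 with a median of 8. Both sets were cut at the same mean, so the likeness of their ranges is set in part by that cut. The variance of a gene's counts within groups divided by its mean, which is near 1 where only counting error acts, had a median of 0.96 over the 35 genes and 0.93 over those reference genes. It was 2.38 over the 6 tested lymphocyte genes, with Cd8a at 6.54, and 50.9 over the macrophage markers. These 2 sets had higher median counts, 38 and 1200 in the deeper samples. On raw counts, depth differences within a group raise the ratio more at higher counts. A ratio near 1 therefore does not mark the 35 genes as background. At 9 Gy day 3, 79.0% of the values of the 35 genes were at a count of 1, and 73.9% of those of the low reference genes. Summed over the 35 genes, raw counts were 323 ± 69.4 (SD, n = 3) in the sham group, 314 ± 30.0 at 2 Gy day 3, 317 ± 45.0 at 2 Gy day 7, 332 ± 19.9 at 9 Gy day 7 and 45.0 ± 5.6 at 9 Gy day 3. All but the last overlapped. Divided by the housekeeping genes, the same sums were 316 ± 40.0 in the sham group, 298 ± 17.5 at 2 Gy day 3, 295 ± 20.6 at 2 Gy day 7, 240 ± 57.1 at 9 Gy day 3 and 199.9 ± 4.3 at 9 Gy day 7. The raw sum at 9 Gy day 7 overlapped with the sham group and the divisor was higher, and at 9 Gy day 3 the sum was mostly made of counts at the minimum, so no change of these genes is read from the scaled sums.

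The effect of the EVs was tested on counts scaled to the geometric mean of the 14 housekeeping genes, for the genes whose mean over the 15 samples was 20 counts or more. Of the 41 lymphocyte genes, 6 passed this filter (14.6%): Cd8a, Lck, Eomes, Xcl1, Il4 and Ms4a1. Of the other 520 genes, 263 passed (50.6%). Ms4a1 was just inside with a mean of 22.9 counts, next to Il4, and Il21 was just outside with 16.8. These are bulk samples, in which fewer cells of a type and less RNA per cell cannot be told apart. With 3 samples a group an exact permutation test could not go below p = 0.1, and edgeR's quasi-likelihood test over 269 genes was used.

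EVs from mice given 2 Gy changed none of the 6 genes by this test. At day 3, 0 of 6 had an adjusted p under 0.05 by edgeR's quasi-likelihood test (0.0% of all 269 genes), and 0 had an unadjusted p under 0.05. DESeq2, run with its own scaling and not that of the housekeeping genes, also called 0, with Cd8a alone at an unadjusted p under 0.05. The scaled Cd8a level was 103 ± 13.8 (SD, n = 3) in the sham group and 135 ± 14.8 at 2 Gy day 3, a log2 fold change of 0.39 with a standard error of 0.20 (edgeR adjusted p = 0.998). At day 7, edgeR and DESeq2 each called 0 of 6 (0.0% of all genes by edgeR), and neither gave an unadjusted p under 0.05. Log2 fold changes of the 6 genes ran from -0.17 for Lck to 0.39 for Cd8a at day 3, and from -0.11 for Xcl1 to 0.27 for Il4 at day 7. Scaled Lck at day 3 lay wholly below the sham samples and raw Il4 at day 7 wholly above them. All other values of the 6 genes overlapped with sham, raw and scaled. The share of all 269 genes without overlap is not given here.

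At 9 Gy day 7 all 6 tested genes were lower than in the sham group on the housekeeping scale (edgeR's quasi-likelihood test, Benjamini-Hochberg adjusted p under 0.05), where 49.1% of all tested genes were lower. Scaled Cd8a fell from 103 ± 13.8 to 58.3 ± 12.6, a log2 fold change of -0.82 with a standard error of 0.20 (edgeR adjusted p = 0.00294). Scaled Lck fell from 49.1 ± 2.62 to 29.9 ± 2.02, and scaled Xcl1 from 40.7 ± 11.4 to 22.9 ± 3.18. Their log2 fold changes were -0.71 and -0.83, with standard errors of 0.23 and 0.21 (edgeR adjusted p = 0.0144 and 0.00365). Eomes, Il4 and Ms4a1 had log2 fold changes of -0.94, -0.90 and -0.71, with standard errors of 0.27, 0.29 and 0.23 (edgeR adjusted p = 0.00911, 0.0158 and 0.0156). For Cd8a, Lck, Xcl1 and Ms4a1 the scaled groups did not overlap, and for Eomes and Il4 they did. The share of all 269 genes without overlap is not given here, so nothing particular to these genes is read from it. Over the 6 genes the log2 fold changes had a median of -0.83, beside -0.45 over all 269 genes. Other lists moved with them in the same fit. Of the 3 reference genes tested, Hamp and Aire fell by 2.77 and 1.66 on the log2 scale (edgeR adjusted p = 0.000203 and 7.22e-05), more than any of the 6 lymphocyte genes. Of the 13 macrophage markers 9 were lower and Csf1r and Trem2 were higher. The housekeeping genes themselves split, with 4 of the 13 tested lower and 4 higher, from -0.87 for Rpl19 to 1.63 for Tubb5. The falls of the 6 lymphocyte genes were not visible in the raw counts, where each of the 6 genes overlapped with its sham values. The calls rested on the scaling. With only the housekeeping genes of at least 100 counts, Lck and Ms4a1 were no longer called (edgeR adjusted p = 0.0682 and 0.0698). None of the 6 was called with TMM scaling, which put the median of all genes at 0.03, or with scaling to the total count, which put it at 0.65. DESeq2, whose own scaling put that median at 0.03, also called 0, with 78 of all 269 genes lower. Scaled to the total, all 6 genes turned to log2 fold changes of 0.14 to 0.39. The split of all called genes moved with it, from 132 lower and 32 higher on the housekeeping scale to 77 and 75 with TMM and 31 and 143 on the total count.

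**Figure D3:**
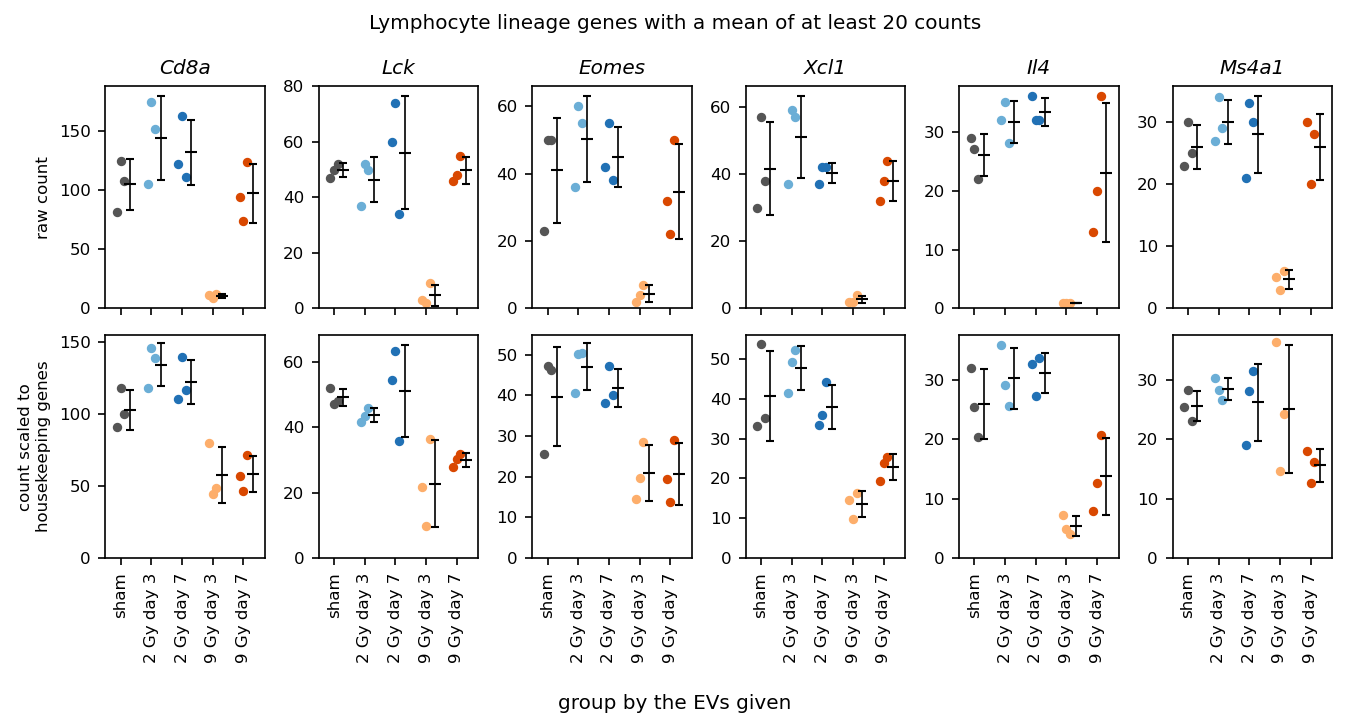
Housekeeping-scaled counts of the 6 tested lymphocyte genes in each sample, with the group mean and SD (n = 3). Cd8a falls from a mean of 103 in the sham group to 58.3 at 9 Gy day 7 and 57.7 at 9 Gy day 3, while the 2 Gy groups stand at 135 and 122.

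At 9 Gy day 3, 4 of the 6 genes were lower than in the sham group on the housekeeping scale (41.3% of all tested genes were lower). Xcl1 was called with a log2 fold change of -1.58 (edgeR adjusted p = 0.00249), but it exceeded the percentile in 1 of the 3 samples, so the size of its fall is not determined. From 8 counts in the group against 125 in the sham group, its ratio per housekeeping count was 0.331, with an exact 95% interval of 0.140 to 0.674 that covers counting error only. Cd8a fell by 0.89 with a standard error of 0.26 and Lck by 1.05 with a standard error of 0.35 (edgeR adjusted p = 0.0102 and 0.0207). With 1 sample left out, the log2 fold change ran from -1.14 to -0.74 for Cd8a and from -1.72 to -0.67 for Lck. Il4 was called too, but from 3 counts in the group against 78 in the sham group: per housekeeping count its ratio was 0.199, with an exact 95% interval of 0.0402 to 0.604 that covers counting error only. The value of 1 may itself stand for a lower count. Il4 exceeded the percentile in 0 of the 3 samples, so the size of its fall is not determined either. With the floor subtracted it was not called (log2 fold change -1.64, edgeR adjusted p = 0.0901). Hamp and Aire of the reference genes had log2 fold changes of -2.50 and -1.70 here, and 9 of the 13 macrophage markers were lower and 2 higher. Eomes had a log2 fold change of -0.86 and Ms4a1 one of -0.10, and neither passed (edgeR adjusted p = 0.0956 and 0.821). The median over the 6 genes was -0.97 and over all tested genes -0.46. With TMM scaling Il4 and Xcl1 alone were called (22.3% of all tested genes were lower), where the median of all genes was 0.01, and with total-count scaling and with DESeq2 (62 of all 269 genes lower) none of the 6 was. All called genes split into 111 lower and 30 higher on the housekeeping scale, 60 and 59 with TMM, and 33 and 121 on the total count. Without 9 Gy day 3 EVs replicate 2 the count fell to 2, with Cd8a and Lck no longer past the threshold (edgeR adjusted p = 0.0566 and 0.186). The number of all 269 genes called without that sample is not given here. Without the 2 samples whose day labels conflict, or with them placed at day 7, the group holds 1 library, which is assumed to vary like the other groups. Cd8a alone was then called (log2 fold change -1.08 in both), beside 70 and 66 of all 269 genes lower.

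Pooled over both days, 9 Gy EVs gave lower scaled levels than 2 Gy EVs for all 6 genes, beside 52.0% of all tested genes lower. The log2 fold changes were -1.85 for Il4, -1.26 for Xcl1, -1.17 for Cd8a, -1.05 for Eomes, -0.83 for Lck and -0.49 for Ms4a1. The standard errors lay between 0.16 for Cd8a and 0.32 for Il4, and the edgeR adjusted p was 1.99e-05 for Cd8a and 0.0434 for Ms4a1. This comparison shares all of its samples with the ones above. It treats the samples of the 2 days as independent, although same-numbered samples of one dose deviated together (r = 0.392 to 0.782 for 2 Gy and 0.35 to 0.73 for 9 Gy), and with the replicate number as a block Ms4a1 was not called (edgeR adjusted p = 0.0564). Its 9 Gy arm includes the day 3 samples, with Il4 at the minimum of 1 and Xcl1 at 2, 2 and 4 counts, so the sizes for these 2 genes are set in part by floor values. Between the day 7 groups alone, a setting added after the data were seen, all 6 were lower too, beside 129 of all 269 genes, with log2 fold changes of -1.17 for Il4, -1.07 for Cd8a, -1.01 for Eomes, -0.78 for Lck, -0.74 for Ms4a1 and -0.72 for Xcl1. Aire and Hamp had pooled log2 fold changes of -1.57 and -2.30, and 9 of the 13 macrophage markers were lower and 2, Csf1r and Trem2, higher. Without the 2 samples of conflicting day labels, Lck and Ms4a1 were not called (edgeR adjusted p = 0.0566 and 0.163). With TMM scaling Cd8a, Eomes, Il4 and Xcl1 were called lower (29.7% of all tested genes), and DESeq2 called the same 4 (30.5%). On the total count Ms4a1 alone was called, as higher (62.5%). Under TMM the median of all genes stood at 0.02 with 80 genes lower and 89 higher, against 140 and 42 on the housekeeping scale and 36 and 168 on the total count.

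**Figure D4:**
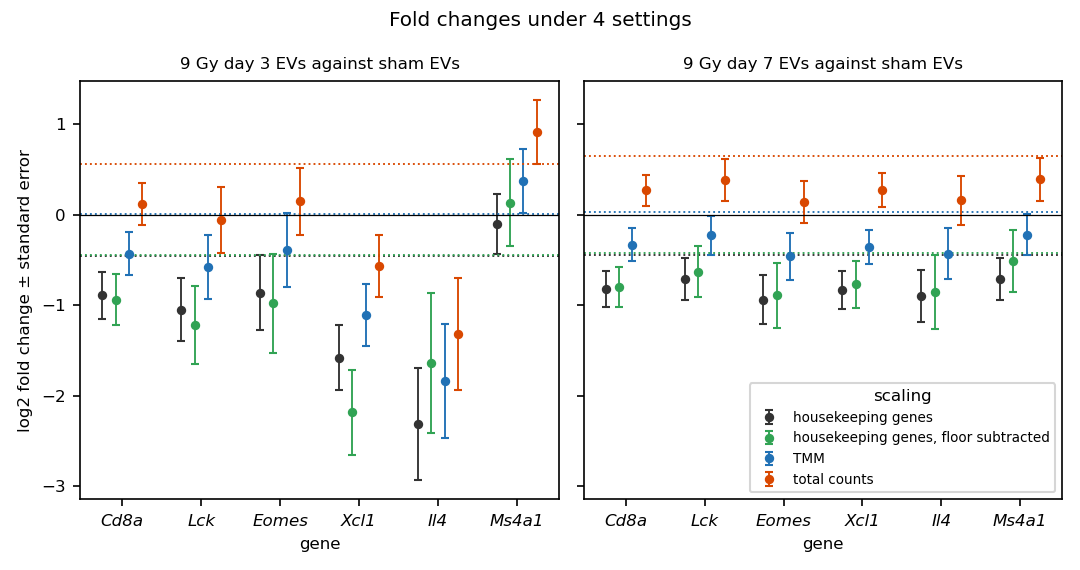
Log2 fold change of the 6 tested lymphocyte genes under housekeeping scaling, the same with the floor subtracted, TMM and total-count scaling, with the median over all tested genes for each. For 9 Gy day 7 EVs against sham EVs these medians are, in that order, -0.45, -0.42, 0.03 and 0.65. There all 6 genes change sign between the housekeeping and the total-count scale.

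Without the filter on low counts all 41 lymphocyte genes entered the fit. At 9 Gy day 7, 17 of them were then called lower (37.8% of the 561 genes were), among them Cd3e, Cd5, Cd22, Cd28, Thy1, Zap70 and Ifng, which were under 20 counts in every sample. The median log2 fold change over the 41 genes was -0.71, beside -0.64 over the panel. When the reference median was first subtracted from each sample, a setting added after the data were seen, Cd8a alone was called there (21.7% of the panel were lower). In the 9 Gy day 3 EV samples the unfiltered fit called Cd8a, Lck, Xcl1 and Il4 lower (18.7% of the panel), and after subtraction Cd8a and Xcl1 lower (16.6%) and Rag2 higher (5.7%). Rag2 had no more than 4 counts in that group.

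Further lymphocyte genes of the panel were mostly at the floor as well. Of 44 such genes outside the set, 3 (6.82%) were clearly expressed: Zbtb7b, the factor that directs T cells to the CD4 lineage, at 134 to 256 counts in the 12 deeper samples, Blnk, an adaptor of the B cell receptor, at 96 to 242, and Pou2f2, a B cell octamer-binding factor, at 46 to 118. A further gene, Il2rb, the beta chain of the IL-2 receptor, passed the filter at 15 to 43 counts. With 2 Gy EVs 0 of these 4 genes were called at either day by edgeR or DESeq2, and 0 had an unadjusted p under 0.05 by either. Zbtb7b fell by 1.55 at day 3 and by 1.21 at day 7 after 9 Gy on the housekeeping scale (edgeR adjusted p = 5.44e-05 and 6.39e-05). Pou2f2 was also lower at both days and Il2rb at day 7, so that 2 of the 4 were lower at day 3 and 3 at day 7, beside 41.3% and 49.1% of all tested genes. The day 3 call of Zbtb7b was also made with TMM scaling, DESeq2 and total-count scaling (log2 fold changes of -1.08, -1.07 and -0.54), beside 60, 62 and 33 of all 269 genes lower. That of Pou2f2 was lost with each of them (adjusted p = 0.0719 by edgeR with TMM, 0.076 by DESeq2 and 0.438 by edgeR on the total count). Unlike the calls of the 6 genes above, those of Zbtb7b, Pou2f2 and Il2rb at 9 Gy day 7 were also made with TMM scaling, with log2 fold changes of -0.74, -0.93 and -1.04 (edgeR adjusted p = 0.00332, 0.00751 and 0.0123), beside 77 of all 269 genes lower, and with DESeq2, beside 78, but none of the 3 was called on the total count. Blnk had log2 fold changes of -0.17 and -0.15 and was not called on the housekeeping scale. On the total count it was called higher, with 0.85 at day 3 and 0.95 at day 7.

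The genes whose scaled levels followed each of the clearly expressed genes most closely over the 15 samples were sought among the 269 tested genes, of which 6 were of the lymphocyte set and 4 were other lymphocyte genes. Pearson's r of log2 scaled counts with Cd8a was 0.963 for Il23a, a subunit of IL-23, 0.945 for the chemokine Ccl3 and 0.934 for the kinase Src. For Xcl1 it was 0.935 for Psmb9 and 0.922 for Psmb10, both subunits of the immunoproteasome, and 0.920 for Aire. For Lck it was 0.899 for Icam2, 0.878 for Abl1 and 0.878 for Aire, a low-count gene of the reference list. The points share the same libraries and the same housekeeping divisor, and the order changed without the 9 Gy day 3 EV samples: over the other 12 samples Cd8a was closest to Ccl3 with r = 0.979, Lck to Tnfaip3 with 0.868 and Xcl1 to Ccrl1 with 0.931.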

How the data were processed

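RNA (100 ng) from RAW 264.7 macrophages was hybridized to the nCounter Mouse Immunology panel. The authors deposited raw counts per gene, without normalization, and these counts were used. Per the methods, the authors normalized in nSolver v4.0 for their own analysis. Normalized values and control probes were not used here. The lowest count is 1, and how lower counts were treated is not given in the sources used here. The dose is 30000000 EVs in the labels and 10000000 in the methods.

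The lymphocyte set, the other gene lists and the tests were chosen with earlier results of these data known. Samples were grouped by title. Each sample was scaled by the geometric mean of its 14 housekeeping genes, and genes whose mean was 20 counts or more were fitted in edgeR 4.0.16 (R 4.3.3) by glmQLFit and glmQLFTest with all 5 groups in 1 fit, a prior count of 0.125 and Benjamini-Hochberg adjustment at 0.05 over all 269 genes. Standard errors are the size of the log2 fold change over the square root of F. DESeq2 1.42.0 with its own scaling, other scalings, filters, subtraction of the reference median, a replicate block, and leaving out each sample were alternatives. Named genes were the clearly expressed and the tested lymphocyte genes, the highest and lowest of the others, other lymphocyte genes that were clearly expressed or called, the highest and lowest macrophage markers, and the 3 genes with the highest Pearson's r to each clearly expressed gene, over log2(scaled count + 1). Further names were chosen after their values were seen. The symbols of the 41 genes all matched RefSeq for GRCm38.p6, used for names and neighbours alone. No 2 samples held identical counts.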

Additional observations from a re-analysis of the deposited data

Results flagged for a closer look

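The difference between 9 Gy and 2 Gy EVs, a test between radiation doses pooled over both days, passed the threshold for all 6 tested lymphocyte genes. On the housekeeping scale the log2 fold changes were -1.85 for Il4, -1.26 for Xcl1, -1.17 for Cd8a, -1.05 for Eomes, -0.83 for Lck and -0.49 for Ms4a1 (edgeR's quasi-likelihood test, Benjamini-Hochberg adjusted p under 0.05 for each, beside 52.0% of all tested genes lower). Ms4a1 was not called with the housekeeping genes of at least 100 counts (edgeR adjusted p = 0.233), with the floor subtracted (0.17), with only the groups compared in the fit (0.056) and without the filter on low counts (0.0717). With the floor subtracted, only the groups compared and no filter, its log2 fold changes were -0.45, -0.49 and -0.49, near the -0.49 above. TMM scaling and DESeq2 each called 4 of the 6 lower, scaling to the total count called none lower and Ms4a1 higher, the fit with the replicate block lost Ms4a1, and leaving out the samples with conflicting day labels lost Lck and Ms4a1. The sizes for Il4 and Xcl1 rest in part on floor counts in the 9 Gy day 3 EV samples. Groups of 3 samples were not searched for single outlying samples.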

How the results depend on the processing

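With 2 Gy EVs, 0 of the lymphocyte genes tested were called under every alternative run, and of all genes 1 was, at 2 Gy day 7 without the filter. Beside each number called, the number of all 269 genes (561 without the filter) called in the same direction is given. For the fits with 1 sample left out it is not given. With 9 Gy day 3 EVs 4 were called, all lower (111 of all genes). This was 2 with TMM (60), 0 with total-count scaling (33) or DESeq2 (62), 1 with the conflicting day labels left out (70) or placed at day 7 (66), which leaves an arm of 1 library, and 3 with the housekeeping genes of at least 100 counts (93) or only the groups compared (97), both without Lck, or the floor subtracted (105), without Il4. With counts under 20 set to 20 it was 5, all higher (97, with 86 lower). With 9 Gy day 7 EVs 6 were called lower (132). This was 0 with TMM (77), total-count scaling (31) or DESeq2 (78), 5 with only the groups compared (127), without Il4, 4 with the housekeeping genes of at least 100 counts (110), 17 of 41 without the filter (212), 3 with the floor subtracted (121) and 1 of 41 with both (122). For 9 Gy against 2 Gy EVs 6 were called lower (140). This was 4 with TMM (80) or DESeq2 (82), 1 with total-count scaling (Ms4a1, higher, as were 168) and 2 with counts under 20 set to 20 (Cd8a lower, as were 107, and Ms4a1 higher, as were 74). It was 5, without Ms4a1, with the housekeeping genes of at least 100 counts (112), the floor subtracted (135) or only the groups compared (139), and 4 with the conflicting day labels left out (124) or placed at day 7 (130). Without the filter it was 8 of 41 (173), again without Ms4a1 (edgeR adjusted p = 0.0717), and 5 of 41 with the floor subtracted as well (133). The number clearly expressed (3) was 1 at 50 counts, 5 with 20 counts alone or without Hamp, Aire, Tal1 and Fcer1a in the reference list, and 0 above the highest reference gene or over all 15 samples. Panel numbers for 50 counts, the highest reference gene and all 15 samples are not given here. Leaving out 1 sample gave 2 to 5 calls for 9 Gy day 3, 5 to 6 for 9 Gy day 7 and for 9 Gy against 2 Gy, 0 to 0 for both 2 Gy groups, and 3 to 4 clearly expressed genes (Eomes joined without sham EVs replicate 1).

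Directions reversed with total-count scaling: at 2 Gy day 7 Lck (-0.01), Eomes (-0.0041) and Ms4a1 (-0.05); at 9 Gy day 3 Cd8a (0.12), Eomes (0.15) and Ms4a1 (0.91); at 9 Gy day 7 Cd8a (0.27), Lck (0.38), Eomes (0.14), Xcl1 (0.27), Il4 (0.16) and Ms4a1 (0.39); and in 9 Gy against 2 Gy Lck (0.29), Eomes (0.06) and Ms4a1 (0.63). Setting counts under 20 to 20 lifts every shallow sample by construction, and gave 0.02, 1.09, 1.38, 1.35, 2.01 and 2.02 for Cd8a, Lck, Eomes, Xcl1, Il4 and Ms4a1 at 9 Gy day 3, and 0.24, 0.07, 0.20, 0.38 and 0.57 for Lck, Eomes, Xcl1, Il4 and Ms4a1 against 2 Gy. Ms4a1 at 9 Gy day 3 also reversed with TMM (0.37), DESeq2 (0.38), the floor subtracted (0.13, also without the filter) and the housekeeping genes of at least 100 counts (0.08), and ran from -0.36 to 0.17 with 1 sample left out. At 2 Gy day 7, leaving out 1 sample moved Lck from -0.11 to 0.26, Eomes from -0.16 to 0.20, Xcl1 from -0.23 to 0.14 and Ms4a1 from -0.11 to 0.22. Beyond the scalings and the raised counts, the cause of a reversal was not tested.

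Replicate numbers did not pair the samples across the groups compared: for none of the 8 group pairs that these tests set against each other were all 3 correlations of same-numbered deviations over 0.1 (0.164, 0.481 and -0.615 for sham and 2 Gy day 3). Between the days of one dose all 3 were over 0.1, at 0.392 to 0.782 for 2 Gy and 0.35 to 0.73 for 9 Gy. The fit with the replicate block called 0, 0, 4, 6 and 5 of the 6 genes lower in the 5 comparisons, beside 0, 0, 116, 136 and 142 of all 269 genes, losing Ms4a1 in 9 Gy against 2 Gy (log2 fold change -0.49, edgeR adjusted p = 0.0564). At 1 to 30 counts, a level above the floor could not be told from the floor for the 35 genes not tested.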
